A study of Homo sapiens with 8 samples.

Results

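The replication-dependent histone genes encode the core histones H2A, H2B, H3 and H4 and the linker histone H1 that package newly copied DNA, and their accessibility was followed here by ATAC-seq, which marks open chromatin by the adapters that Tn5 transposase places in it. They were chosen by name: every protein-coding gene of GENCODE release 44 called H1-1 to H1-6, or H2AC, H2BC, H3C or H4C with a number. This gave 69 of 19970 protein-coding genes, namely 6 H1, 17 H2A, 18 H2B, 13 H3 and 15 H4 genes. For each gene the accessible regions overlapping the 1000 bp on either side of its transcription start site (TSS) on genome build hg38 were taken from each library. The rule uses gene names and positions and no measured value, but it was set with earlier results of these data known.

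The cells were U2OS, a human osteosarcoma line, either wild-type (WT) or ASH1L-/-, a derivative with CRISPR/Cas9 deletions in ASH1L, whose product methylates histones. Cells of each genotype were either left unchallenged (no UV) or irradiated with UV-C at 20 J per square metre and analysed 3 h later, with 2 libraries labelled as biological replicates in each of the 4 groups. A DNase treatment before harvest was meant to break down the DNA of dead or damaged cells. Comparing the 4 groups asks how accessibility at these promoters differs after UV and between the genotypes. The authors isolated individual colonies of edited cells, and the labels name no clone. Loss of ASH1L and differences between clones therefore cannot be told apart here.

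Each of the 8 lists held between 158198 and 220783 accessible regions, called by the authors in that library alone. The lists carry no read counts, so depth could be recovered only in relative terms, from the lowest background of each library. This mean pileup lay between 1.39 and 5.87, both extremes being unchallenged ASH1L-/- libraries. The promoter of ASH1L itself held a region in all 8 lists, with percentiles of 91.9 and 93.7 in unchallenged WT cells and of 97.6 and 93.9 in unchallenged ASH1L-/- cells. A promoter region does not check deletions further inside the gene. Of 8 mesenchymal markers, 6 had a promoter region in every list, TWIST1 had one in 2 lists and COL1A2 in 7. Among epithelial, blood and liver markers, KRT8 and EPCAM had a region in 8 lists, SPI1 in 1, and CDH1, ESRP1, PTPRC, CD3E and ALB in none. In the summit pileup defined further on, no mesenchymal marker of 6 tested was called after UV (lowest adjusted p = 0.058), VIM and COL1A1 were called lower in ASH1L-/- cells (-0.49 and -0.43), and EPCAM was called lower after UV (-0.50, adjusted p = 0.0393).

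Histone genes of this kind are transcribed mainly in S phase, when new DNA needs new nucleosomes. Their short messages lack introns and a poly(A) tail and end instead in a stem-loop bound by SLBP. Transcription is coordinated by NPAT, a coactivator that gathers at the gene clusters in nuclear histone locus bodies, and gene-specific promoter elements recruit further factors, such as HINFP at H4 genes and the octamer-binding protein OCT1 (POU2F1) at H2B genes. Many H2A and H2B genes stand head to head and share 1 promoter.

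The genes lie in few places. On chromosome 6, 55 of the 69 had their TSS between positions 25726562 and 27893425, a stretch of 2.17 Mb. On chromosome 1, 11 lay between 149812373 and 149887965, and the H2AC25/H2BC26 pair lay elsewhere on that chromosome. H4C16 lay on chromosome 12. Promoter sequences were found by symbol for 64 of the 69 genes in the RefSeq annotation of GRCh38.p14 (H2AC12, H3C11, H3C12, H4C1 and H4C3 were not matched). They were searched, on both strands and from 250 bases before to 50 bases after the start, for CCAAT and for TATAAA, for the octamer ATGCAAAT, for the H1 box AAACACA, for GGTCCG as found in H4 promoters, and for the E2F-type letters TTTGGCGC.

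Promoter sequences are shown for a few genes that the results below return to. These are the 3 H1 genes with a region in every list and the H3 gene of lowest signal. A shared H2A/H2B promoter that differed between genotypes and the shared promoter of highest signal are given too. The sequences are written 5′ to 3′ and end at the base before the start of the gene. For the shared promoters they span the bases between both starts on the plus strand. Capitals mark matches to the searched letters on either strand.
H1-1, chr6:26017788-26018037, minus strand: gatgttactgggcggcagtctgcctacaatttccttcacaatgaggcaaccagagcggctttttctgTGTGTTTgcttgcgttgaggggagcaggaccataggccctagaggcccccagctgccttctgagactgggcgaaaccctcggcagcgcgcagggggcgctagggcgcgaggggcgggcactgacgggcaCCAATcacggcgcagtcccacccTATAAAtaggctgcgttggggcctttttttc
H1-2, chr6:26056471-26056720, minus strand: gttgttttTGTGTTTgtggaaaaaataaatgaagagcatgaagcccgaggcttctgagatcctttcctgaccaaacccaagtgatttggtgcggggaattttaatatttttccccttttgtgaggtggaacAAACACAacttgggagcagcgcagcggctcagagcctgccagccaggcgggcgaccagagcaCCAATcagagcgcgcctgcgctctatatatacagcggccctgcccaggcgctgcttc
H1-4, chr6:26156079-26156328, plus strand: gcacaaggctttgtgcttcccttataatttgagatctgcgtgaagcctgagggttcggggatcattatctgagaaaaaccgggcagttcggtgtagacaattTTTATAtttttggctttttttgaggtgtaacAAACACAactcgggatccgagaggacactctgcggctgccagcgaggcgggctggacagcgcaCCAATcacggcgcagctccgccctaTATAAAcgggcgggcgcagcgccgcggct
H3C10, chr6:27809801-27810050, plus strand: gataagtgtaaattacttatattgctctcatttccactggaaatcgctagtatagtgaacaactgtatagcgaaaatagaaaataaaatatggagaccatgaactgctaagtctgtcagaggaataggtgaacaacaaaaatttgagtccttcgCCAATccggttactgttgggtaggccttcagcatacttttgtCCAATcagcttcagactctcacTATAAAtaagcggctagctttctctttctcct
H2BC8/H2AC8, chr6:26216689-26216920, plus strand: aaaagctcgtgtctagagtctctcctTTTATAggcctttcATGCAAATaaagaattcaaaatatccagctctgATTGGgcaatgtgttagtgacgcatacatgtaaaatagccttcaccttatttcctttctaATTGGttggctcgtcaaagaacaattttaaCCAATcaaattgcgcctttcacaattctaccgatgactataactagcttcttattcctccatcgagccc
H2BC11/H2AC11, chr6:27132796-27133042, plus strand: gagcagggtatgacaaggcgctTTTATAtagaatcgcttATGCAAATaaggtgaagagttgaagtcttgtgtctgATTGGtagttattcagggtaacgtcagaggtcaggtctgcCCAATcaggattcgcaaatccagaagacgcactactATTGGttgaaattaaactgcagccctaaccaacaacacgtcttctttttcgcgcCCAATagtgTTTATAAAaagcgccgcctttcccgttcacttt

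The letters followed the histone class. CCAAT was present in 54 of 64 promoters (84.4%, against 35.7% of all 27305 promoters of the table) and TATAAA in 42 (65.6% against 12%). The octamer was found in 26 promoters (40.6% against 1.80%), 11 of 16 H2A and 14 of 18 H2B promoters among them, and in no H4 promoter. Both genes of a shared promoter can count the same octamer, as at H2BC8/H2AC8 and H2BC11/H2AC11, so these are not separate sites. AAACACA stood in all 6 H1 promoters and in 3 others (5.76% of all promoters), and GGTCCG in 12 of 13 H4 promoters and 3 others (11.2% of all promoters). TTTGGCGC was in none of the 64 and in 0.659% of all promoters.

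An accessible region at the promoter was found in all 8 libraries for 36 of the 69 genes (52.2%, against 56.4% of all protein-coding genes), in no library for 19 (27.5% against 19.4%) and in 1 to 7 libraries for 14. In single libraries between 38 and 46 of the 69 genes had one. H2A and H2B were best represented, with 10 of 17 and 10 of 18 genes in every list. H4 had 8 of 15, H3 had 5 of 13, and H1 had 3 of 6, namely H1-1, H1-2 and H1-4. The 36 genes had only 26 distinct strongest regions, and 19 genes shared theirs with another. Neighbouring genes shared a promoter, or the window of 1 gene reached the region at another's start. The second was so at H3C1, with the summit 1166 to 1214 bp from its start, and at H2AC21, at 1063 to 1327 bp. Only regions shared in all 8 lists were counted as 1, so genes that share a region in some lists count apart. In 29 of the 36 genes (80.6%, against 66.1% of all tested genes) the summit, the point of highest signal, lay within 250 bp of the TSS.

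The 19 genes without a region fell into 2 sets. The genes H2BC18, H3C13, H4C14, H3C14, H3C15 and H4C15 lay in the duplicated cluster of chromosome 1, where 64% to 100% of the 50-base stretches around the TSS occur elsewhere in the genome. The authors removed reads of low mapping quality, and the part of this filter in the missing regions was not tested. Another 2 genes of that cluster, H2AC18 and H2AC19, had as many repeated stretches (87.8% and 87.7%) and a region in 2 and 3 lists. The other 13, H2AC1, H2BC1, H3C3, H1-6, H4C4, H1-3, H4C6, H3C7, H2BC9, H3C8, H2BC10, H3C12 and H2AC17, lay on chromosome 6, where at most 6.81% of these stretches were repeated. H2AC1, H2BC1 and H1-6 are testis histone genes. None of the 36 genes present in every list exceeded 23.6%.

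The other 14 genes appeared in part of the lists. H2BC8 and H2AC8 had a region in 4, H4C7, H4C12 and H2BC17 in 6, H2AC19 and H4C13 in 3, H2AC18, H2AC25, H2BC26, H2BC3, H1-5 and H3C11 in 2, and H2AC16 in 1. H4C7 lacked a region only in the 2 unchallenged WT libraries, and H2BC3 had one only in the 2 irradiated WT libraries. H2AC25 and H2BC26 share a region that was found in 1 unchallenged and 1 irradiated ASH1L-/- library. Most of these regions were small. H2BC3 was at the shortest width listed, 150 bp, in both libraries.

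H2BC8 and H2AC8 separated the genotypes. Their starts face away from each other at positions 26216688 and 26216921 of chromosome 6, and the 232 bases between them, printed above, contain the octamer, a TATAAA match and 3 CCAAT matches. The shared region was present in 4 of 4 ASH1L-/- libraries and in 0 of 4 WT libraries. Its width was 1038 and 962 bp in unchallenged ASH1L-/- cells and 1095 and 1055 bp after UV. Its fold enrichment, the authors' ratio of summit pileup to local background, was 8.47 and 7.08 without and 7.7 and 8.03 after UV, with −log10 p of at least 30.8. Its percentile was 93.6 and 82.2 without and 77.5 and 82.2 after UV. The median tested gene was at 92.3, 89.8, 87.2 and 88.9 in the same libraries, so the region lay below the median promoter in 3 of the 4. Such a separation was rare, as 0.240% of all protein-coding genes (48 genes) had a region in all ASH1L-/- and no WT library, and 0.0601% had the converse, which no histone gene did. It held for both genes under each of the 5 other definitions of a promoter region that were tried. The WT lists had no region at all between chr6:26206313-26222780, a stretch of 16468 bp, where each ASH1L-/- list held at least 1. In the chromosome 6 cluster 29 of 254 gaps between WT regions were at least as long as this one. No histone gene separated by UV, while 0.265% of all genes had a region in all irradiated and no unchallenged library and 0.0351% the converse.

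**Figure D1:**
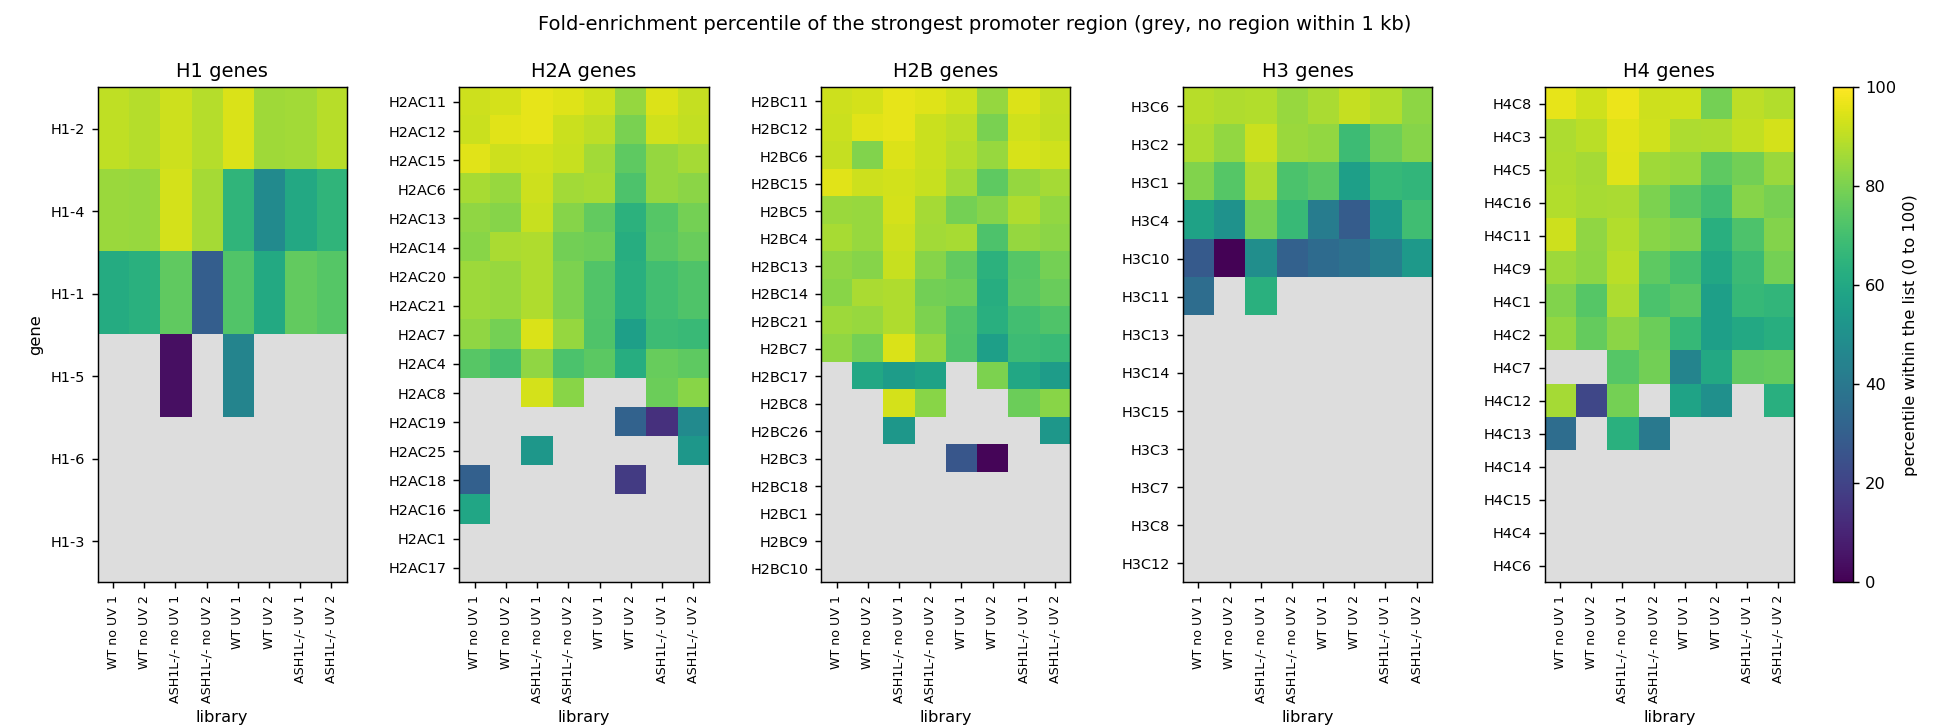
Percentile of fold enrichment of the strongest promoter region of each replication-dependent histone gene (rows, grouped by class) in each of the 8 libraries (columns). Grey marks a gene without a region in that library: 19 genes are grey in all 8 columns, and H2BC8 and H2AC8 are coloured only in the 4 ASH1L-/- libraries.

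For the 36 genes found in every list, the strongest region of each was ranked by fold enrichment among all regions of its library, so that a percentile of 90 means that 90% of the regions of that list were weaker. Averaged over 8 libraries, the highest gene of each class was H2BC11 and H2AC11 (shared, 92.6), H4C8 (91.1), H1-2 (89.6) and H3C6 (87.5). The lowest were H2BC7 (75.8), H2AC4 (73.5), H4C2 (70.8), H1-1 (64.2) and H3C10 (34.8). The highest of them do not differ beyond their spread: the region of H2BC11/H2AC11 ranged from 84.1 to 96.2, and that of H4C8 from 79.2 to 96.9. H3C10 ranged from 0.462 to 53.9, which overlaps H3C4 (28.95 to 79.1) and H1-1 (29.98 to 76.1). The mean of H1-2 joins different regions. Without UV a single region over its promoter had percentiles of 88.8 to 92.5. After UV the strongest region in its window had the summit 1173 to 1199 bp from the start. The region over the H1-2 promoter itself was then at 47.9 to 77.9.

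After UV most of these promoters ranked lower. The median of the 36 genes lay between 84.3 and 91.6 in the unchallenged and between 64.4 and 79.3 in the irradiated libraries, so the ranges did not overlap. Nor did they for all genes with a region in every list, whose medians were 89.8 to 92.3 without and 82.8 to 88.9 after UV. The UV difference, taken as the mean over both genotypes, had a median of -9.81 percentile points for the histone genes and of -2.83 for all 11258 genes with a region in every list. It was negative in 33 of 36 histone genes and in 79.8% of all genes. In 16 of the 36 genes the 4 irradiated libraries all lay below the 4 unchallenged ones, against 21.2% of all genes, and in none did they all lie above, against 1.14%.

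At H1-4, a linker histone gene that most dividing cells express, the value of -27.6 ± 4.94 (SE) compared different regions. Without UV the strongest region in its window was that of the neighbouring H2BC5, with the summit 1731 to 1751 bp from the H1-4 start and percentiles of 84.8, 84.7, 93.7 and 86.4. After UV it was the region at H1-4 itself, with the summit at 126 to 143 bp and percentiles of 65.6, 48.0, 60.2 and 65.6. That promoter region had percentiles of 67.1, 63.0, 75.9 and 48.7 without UV, so its own values overlapped between the groups. Among the other genes whose 4 irradiated libraries all lay below the unchallenged ones, the shared H2AC7/H2BC7 region differed by -18.9 and H4C2 by -18.4. The region of the chromosome 1 genes H2BC21, H2AC20 and H2AC21 went from 85.4, 84.5, 88.3 and 80.3 to 72.7, 62.9, 69.8 and 72.5, a difference of -15.1. H4C11 (-12.3) and H2AC13/H2BC13 (-11.4) followed. Falls as large occurred where the groups overlapped, at H3C4 (-15.2), H4C9 (-14.0) and H3C1/H4C1 (-12.6). In each of the genes named before these the groups did not overlap. They were named for this, which fixes the exact two-sided permutation p over 70 assignments at 0.0286, the smallest possible. None passed the limma test across all genes, however, in which 0% of the 11258 genes were called in either direction for UV, for genotype or for their interaction. The lowest adjusted p of a histone gene for UV was 0.0951, and 17 histone genes and 3204 genes in all had an unadjusted p below 0.05. Whether histone genes were called depended on which library was left out. Their median difference ran from -12.8 to -7.23 percentile points in those fits.

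The fold enrichment sets the summit against its surroundings, so it can stay the same where both change together. The pileup at each summit was therefore recovered from the fold enrichment and the p-value, divided by the lowest background of its library and expressed as a multiple of the median tested gene of that library. This relative pileup began as another scale of the percentile and was made a result of its own after the data had been seen. Its median over the 36 histone genes was 2.11 and 1.69 in unchallenged WT and 1.84 and 1.74 in unchallenged ASH1L-/- libraries. After UV it was 1.12 and 1.14 in WT and 1.11 and 1.03 in ASH1L-/- libraries. On this scale the histone median thus stood well above the median promoter without UV, and close to it after UV, in both genotypes. In percentile of fold enrichment the histone median lay below that of all tested genes in each of the 8 libraries, without UV too. In such bulk libraries, fewer cells with an open promoter and a less open promoter in each cell cannot be told apart.

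The UV difference in log2 relative pileup had a median of -0.69 over the histone genes (0.619-fold) and of -0.05 over all genes (0.966-fold). It was negative in 34 of 36 histone genes and in 57.5% of all genes. By limma, 27 of the 36 genes, or 18 of 26 distinct regions, fell at an adjusted p below 0.05 and none rose. H1-4 and H2BC5 count as separate regions among these, although both take the same region without UV. Among all genes 2.98% were called lower (335 genes) and 3.07% higher (346 genes). The median difference was -0.82 in WT and -0.50 in ASH1L-/- cells. The interaction was called for no histone gene and for 0% of all genes, with 2 histone genes and 430 genes in all at an unadjusted p below 0.05. Leaving out 1 library at a time, the median difference of the histone genes ran from -0.713 to -0.572. H1-4, H2BC5, H4C2, H4C5, H3C2 and the shared regions of H2AC7, H2BC12, H2AC13, H2AC14 and H2BC21 were called lower in every such fit. The other calls were lost in at least 1 of them. With the region whose summit was nearest to the start, 18 of the 36 genes were called lower. The share of all genes called in that fit is not given here. The strongest region is a different one after UV at H1-4, H1-2 and H2BC4/H2AC6. At H3C1 and H2AC21 its summit lay more than 1000 bp from the start of the gene in every library. The result is relative to the median gene: on the scale without that centring the median of all genes rose by 0.45 and that of the histone genes was -0.19, 23 of 36 were below 0, and no histone gene was called.

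**Figure D2:**
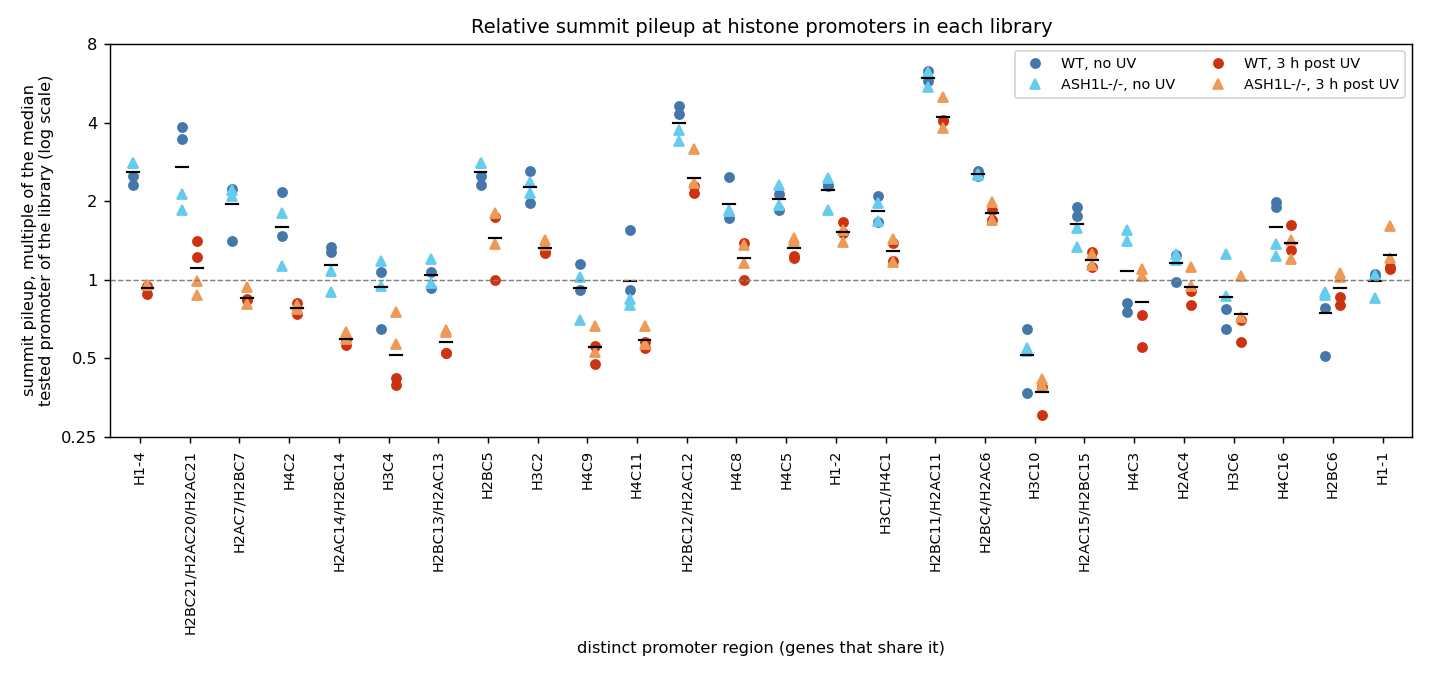
Summit pileup as a multiple of the median tested gene (log axis) for each distinct histone promoter region in the 8 libraries, ordered by UV difference. Black bars are geometric means of the 4 unchallenged and the 4 irradiated libraries. The H1-4 row sets the H2BC5 region (no UV) against the H1-4 promoter region (UV), and H1-1 and H2BC6 lie higher after UV.

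The 3 H1 genes gave different values, which were not tested against each other. At H1-4 the relative pileup was 2.31, 2.49, 2.80 and 2.80 in the unchallenged libraries (WT, then ASH1L-/-) and 0.882, 0.944, 0.951 and 0.955 after UV, a log2 difference of -1.48 ± 0.13 SE (adjusted p = 2.72e-07) that again sets the H2BC5 region against that of H1-4. For the region with its summit nearest to the H1-4 start the log2 difference was -0.56, with an adjusted p of 0.0514. At H1-2, an H1 gene expressed in most tissues, the relative pileup went from 2.30, 2.28, 1.86 and 2.45 to 1.67, 1.51, 1.40 and 1.55 (log2 difference -0.53, adjusted p = 0.0181). That call was lost without the second irradiated WT, the second unchallenged ASH1L-/- or either irradiated ASH1L-/- library (adjusted p up to 0.138). For the summit nearest to its start the fall was -1.57 (adjusted p = 0.0031). H1-1 went the other way, from 1.06, 1.04, 1.04 and 0.850 to 1.12, 1.10, 1.60 and 1.21. Its 4 irradiated values all exceeded the unchallenged ones, but the difference of 0.33 did not pass the test across genes (adjusted p = 0.204). All 3 printed H1 promoters have the H1 box and a CCAAT match.

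The shared H2A and H2B promoters gave both the highest levels and some of the largest falls. H2BC11/H2AC11 had the highest relative pileup, 6.31, 5.75, 5.48 and 6.28 without UV and 4.04, 4.08, 5.02 and 3.81 after it (-0.50, adjusted p = 0.0193, but up to 0.200 without the second unchallenged or the second irradiated ASH1L-/- library). H2BC12/H2AC12 went from 4.31, 4.63, 3.74 and 3.40 to 2.16, 2.3, 3.16 and 2.35 (-0.70, adjusted p = 0.00117). Both remained above the median gene after UV. The region of H2BC21, H2AC20 and H2AC21 went from 3.85, 3.47, 1.86 and 2.12 to 1.22, 1.41, 0.877 and 0.989, a fall to 0.411-fold (-1.28 ± 0.13, adjusted p = 1.49e-06). Its summit lay 1063 to 1327 bp from the H2AC21 start, so the value does not describe that gene's own promoter. H2AC7/H2BC7 went from 2.22, 1.40, 2.21 and 2.10 to 0.842, 0.833, 0.938 and 0.809 (-1.19 ± 0.15, adjusted p = 3.08e-05). Both of these regions started above the median gene and ended near or below it. H2AC14/H2BC14 fell by 0.93 (adjusted p = 0.000791), while H2AC15/H2BC15 (-0.45, adjusted p = 0.055), H2AC4 (-0.31, adjusted p = 0.237) and H2BC6 (0.31, adjusted p = 0.283) were not called. H2BC8/H2AC8, seen only in ASH1L-/- cells and therefore not in the test, was at 1.52 and 1.38 without and 0.728 and 0.831 after UV.

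H3 and H4 genes mostly followed. H4C2 went from 2.17, 1.47, 1.13 and 1.80 to 0.737, 0.817, 0.802 and 0.775 (-1.03 ± 0.17, adjusted p = 0.00053), so its groups did not overlap. H3C2 fell by 0.77 (adjusted p = 0.000811), H4C8 by 0.68 (adjusted p = 0.00803, but 0.0686 without the second irradiated ASH1L-/- library), and H3C4 by 0.86 (adjusted p = 0.00886). The call on H3C4 was lost without the first unchallenged WT, the second unchallenged ASH1L-/- or the first irradiated ASH1L-/- library (adjusted p up to 0.0805). H3C6 (-0.21), H3C10 (-0.46), H4C3 (-0.39) and H4C16 (-0.21) were not called. H4C16 is the H4 gene that lies outside the clusters. Of the genes with a matched promoter sequence, 25 were called and 8 were not. CCAAT stood in 21 of the 25 and 7 of the 8, TATAAA in 18 and 6, and the octamer in 13 and 2. Here too, genes of a shared promoter can count the same letters.

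**Figure D3:**
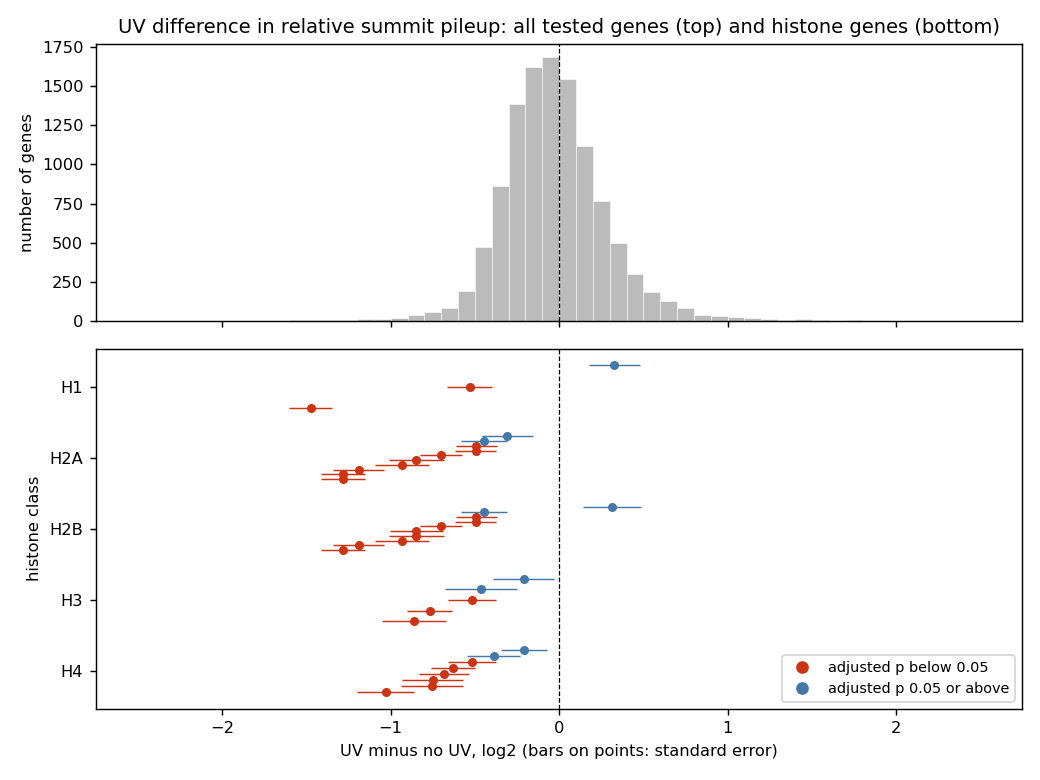
UV difference in log2 relative summit pileup for all 11258 tested genes (top, histogram) and for the 36 histone genes by class (bottom), with standard errors as bars and red marking an adjusted p below 0.05. The median lies at -0.05 for all genes and at -0.69 for the histone genes.

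The background around the summits fell as well. The local background of the region, over the lowest background of the library and as a multiple of the median gene, had a histone median of 3.13, 2.49, 1.91 and 3.00 in the unchallenged and of 1.43, 1.7, 1.63 and 1.69 in the irradiated libraries. On the log2 scale the UV difference had a median of -0.62 for the histone genes and of -0.03 for all genes. It was called lower in 32 of 36 histone genes, against 5.13% of all genes. Summit and surroundings thus fell by similar amounts. The background was calculated from the recovered pileup and the fold enrichment, so it is no separate measurement. It follows the pileup where the fold enrichment changes little (histone median 7.64 without and 7.17 after UV). The background measure was added after the data had been seen.

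Regions also changed in width. The median UV difference in log2 width was -0.15 for the histone genes (0.903-fold) and 0.17 for all genes (1.12-fold), that is, most promoters had wider regions after UV and 27 of 36 histone genes had narrower ones. Across all genes limma called 0.0444% narrower (5 genes) and 1.95% wider (220 genes). Of these 5, 3 were histone genes, H1-2, H1-4 and H2BC5, and the others were PDLIM7 and MMRN2. In 5 of 36 histone genes the irradiated libraries were all narrower than the unchallenged ones, against 0.346% of all genes, and in 0 were they all wider, against 16.1%. The narrower genes were H1-2, H1-4, H2BC5, H2BC4 and H2AC6. Of these, H1-4 and H2BC5 had the same region without UV, and H2BC4 and H2AC6 the same region in every library.

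The width of the strongest H1-2 region was 2200 and 1774 bp in WT and 1761 and 1751 bp in ASH1L-/- cells without UV, and 865, 943, 927 and 992 bp after it (log2 difference -1.0 ± 0.08 SE, adjusted p = 0.0143). Without UV a single region ran in all 4 libraries from 434 to 217 bp before the start to 1500 to 1765 bp after it, past the end of the 731 bp gene. After UV it was replaced in all 4 libraries by 2 regions, one of 507 to 736 bp over the promoter and one that began 639 to 713 bp downstream. The second was the stronger, so it is the one whose width was tested. The number of bases covered in the 1000 bp downstream of the start fell from 1000 in each unchallenged library to 556, 643, 673 and 671 (difference -364 ± 22.5 SE, adjusted p = 0.00542, against 0.0711% of all genes called lower). The unchallenged values are all at the upper limit of this measure and show no spread, so the SE and p may be too small. It describes the same change as the width. The gap between the 2 regions lay over the gene body of H1-2.

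At H2BC5 the width was 1356, 1162, 1270 and 1161 bp without and 704, 821, 840 and 916 bp after UV (-0.60 ± 0.09, adjusted p = 0.0398). The same unchallenged region reached to between 911 and 968 bp from the H1-4 start, and it is the one counted for H1-4 there. The width called for H1-4 (-1.37 ± 0.12, adjusted p = 0.0155) therefore compares the H2BC5 region without UV with the H1-4 region of 436, 415, 454 and 630 bp after UV. The region over the H1-4 promoter itself was 401, 272, 442 and 420 bp wide without UV, and its log2 difference was 0.34 (adjusted p = 0.359).

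The shared region of H2BC4, H2AC6 measured 1909, 1011, 1847 and 1860 bp without and 811, 910, 809 and 802 bp after UV (-0.95, adjusted p = 0.0887). Here too a single region became a pair, in 4 of 4 irradiated and already in 1 of 4 unchallenged libraries. H4C2 went from 1308, 1381, 1261 and 1392 bp to 584, 568, 1286 and 638 bp, so that 1 irradiated ASH1L-/- library kept the wide region (-0.89, adjusted p = 0.117). H3C1/H4C1 went from 1576, 769, 1691 and 1657 bp to 680, 999, 729 and 702 bp (-0.82, adjusted p = 0.163). Among 26 histone genes of at most 1500 bp, 7 were covered from start to end by a single region in more unchallenged than irradiated libraries, 4 in fewer, and 15 in equal numbers. The corresponding counts among 108 other genes as short were 1, 9 and 98. H1-2 was covered in this way in 4 unchallenged and 0 irradiated libraries, H3C1 in 3 and 0, H4C2 in 4 and 1, and H4C3 in 4 and 4.

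The 3 calls on width rest on few libraries. With the replicate number as a block no histone gene was called (adjusted p of 0.0542, 0.0563 and 0.0926 for H1-2, H1-4 and H2BC5), and none was called without the second irradiated WT library, the second unchallenged ASH1L-/- library or either irradiated ASH1L-/- library. With the summed width of all regions in the window only H1-4 was called, and H1-2 was at -0.28 (adjusted p = 0.128).

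**Figure D4:**
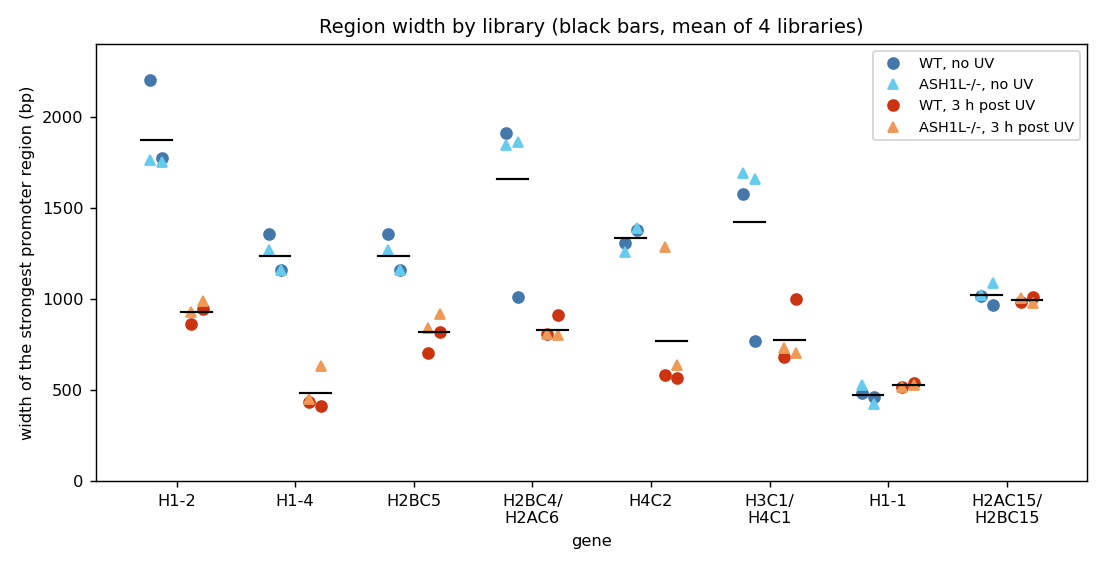
Width in bp of the strongest promoter region for 8 histone genes or shared regions in the 8 libraries, with black bars for the means of the 4 unchallenged and the 4 irradiated libraries. The H1-2 region is 1751 to 2200 bp wide without UV and 865 to 992 bp wide after it.

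**Figure D5:**
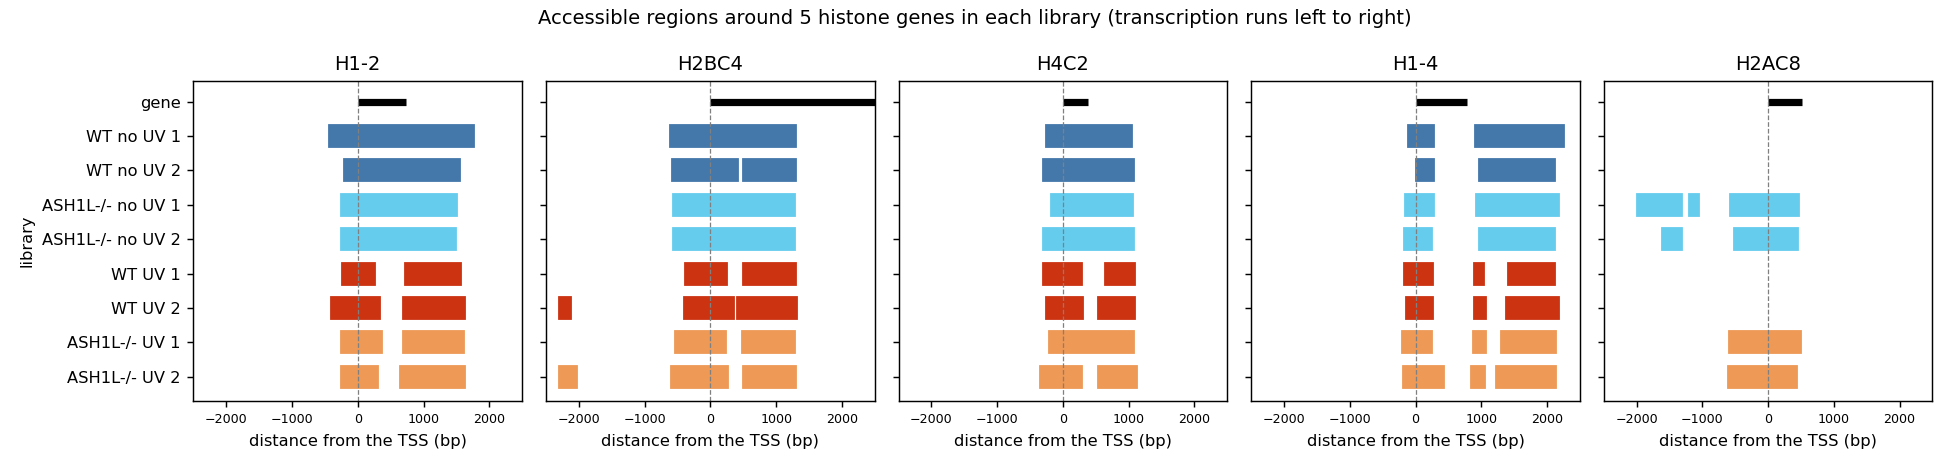
Accessible regions around the start sites of H1-2, H2BC4, H4C2, H1-4 and H2AC8 in each library, drawn to scale by distance from the start in bp, with the gene as a black bar. The single region over H1-2 becomes 2 regions in all 4 irradiated libraries, and the H2AC8 region is drawn only for the ASH1L-/- libraries.

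Between genotypes the histone genes differed little. The median difference in percentile, ASH1L-/- minus WT, was 3.28 for the histone genes and 1.06 for all genes. In 2 of 36 genes the 4 ASH1L-/- libraries all lay above the 4 WT ones, against 1.7% of all genes, and in none all below, against 0.746%. These were H2BC6 (80.9 to 91.1 in WT and 92.1 to 94.8 in ASH1L-/- cells, a difference of 6.94) and H4C3 (87.6 to 89.7 and 90.8 to 95.5, a difference of 4.83). Both were named for this separation, which fixes their exact permutation p at 0.0286. By limma no histone gene was called for genotype (3 histone genes and 599 genes in all at an unadjusted p below 0.05) or for the interaction (0 and 288), whose median was 1.93 points for histone genes and 1.76 for all genes. In relative pileup H4C3 was called higher in ASH1L-/- cells, with 1.41, 1.55, 1.10 and 1.03 against 0.815, 0.754, 0.553 and 0.730 in WT (0.83, adjusted p = 0.0026). The region of H2BC21, H2AC20 and H2AC21 was called lower (-0.69, adjusted p = 0.0026), although its libraries overlapped between genotypes. For all genes these shares were 3.49% higher and 6.24% lower.

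In width the genotypes gave a median difference of -0.00 on the log2 scale, and limma called 0% of all genes in either direction (1 histone gene and 655 genes in all at an unadjusted p below 0.05). At H4C5 the 4 ASH1L-/- regions were all narrower (697 to 739 bp against 797 to 1219 bp in WT). The gene was named for this separation, which fixes the exact permutation p at 0.0286. Of all genes, 1.0% were narrower in that way and 0.728% wider. At H3C6 the covered bases downstream of the start were 175, 199, 165 and 169 in WT and 434, 459, 559 and 520 in ASH1L-/- cells (316 ± 20.7 SE, adjusted p = 0.0176, against 0.0355% of all genes called higher). In the interaction of UV and genotype no histone gene was called for width (3 histone genes and 495 genes in all at an unadjusted p below 0.05), against 0% of all genes for a higher and 0.00888% for a lower value.

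The proteins that make and process histone messages are encoded elsewhere. Of 20 genes for such factors 19 had a promoter region in every list, and their median UV difference in relative pileup was -0.02. One of them, ZNF473, a zinc finger protein of histone message processing, fell (3.19, 3.21, 2.74 and 2.5 without UV, 2.18, 1.67, 2.57 and 2.10 after it, -0.46, adjusted p = 0.0369). Its call held only when no library or the first irradiated WT library was left out (adjusted p up to 0.232). NPAT had a difference of -0.23 (adjusted p = 0.284) and SLBP of 0.09 (adjusted p = 0.808). Of the replication-independent histone genes, which are expressed outside S phase too, 8 of 18 were in all lists, with a median of -0.25. H3-3B, 1 of the genes of the replacement histone H3.3, was called lower (-0.50, adjusted p = 0.0393) and no other was. Its call was lost with 6 of the 8 libraries left out in turn, all but the first unchallenged and the first irradiated WT library (adjusted p up to 0.197). Between the histone genes of the chromosome 6 cluster lie 20 other protein-coding genes, of which 13 could be tested. Their median was -0.15, and 2 were called lower, ZNF184 (-0.49, lost without any library other than the first unchallenged or the first irradiated WT one, adjusted p up to 0.208) and 1 gene that shares the H2AC7/H2BC7 region.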

How the data were processed

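The authors trimmed adapters with cutadapt 1.9.1, aligned 50 bp paired reads with Bowtie2 2.4.5 to hg38 without chromosome Y, filtered and de-duplicated them with SAMtools 1.7, bedtools 2.29.2 and Picard, and called regions with MACS2 2.2.7.1 in each library. The deposited lists hold a fold enrichment (a ratio of pileup to local background), MACS2's −log10 of p and of q, and a score, which was not used. None is normalised between libraries. Between 234 and 397 record numbers are skipped in each list (0.0983% to 0.135%) and are not analysed here. A region was a distinct interval with its record of highest fold enrichment, and a gene took its strongest region. Pileup was solved from fold enrichment and p under the Poisson model of MACS2. Percentile, log2 width and log2 relative pileup were compared by limma 3.58.1 (R 4.3.3) in 1 fit of 8 libraries, with Benjamini-Hochberg adjustment over 11258 genes. This was tested on simulated data. Single genes had exact two-sided permutation tests, and p-values measure the spread between 2 libraries per group.

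The members, lists and tests were chosen with earlier results of these data known. Genes named are the highest and lowest of each class, those absent from a list, those whose libraries did not overlap or that passed limma (up to 10), and the lists above. PDLIM7, MMRN2, the genes not called in pileup and those given for their shape were named after their values were seen. The presence of 1 marker gene is not reported here.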

Additional observations from a re-analysis of the deposited data

Results flagged for a closer look

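At the shared region of H2AC14 and H2BC14 the UV difference in width had opposite signs in the 2 genotypes, with every irradiated library narrower than the unchallenged ones in WT and wider in ASH1L-/- cells. The widths were 1529 and 996 bp without and 763 and 841 bp after UV in WT, and 677 and 784 bp without and 799 and 869 bp after UV in ASH1L-/- cells. The log2 differences were -0.62 and 0.19, and they differed by 0.82. It was singled out for this opposition of signs. In the limma fit across all genes, with Benjamini-Hochberg adjustment, the interaction had an adjusted p of 0.99995.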

How the results depend on the processing

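The count of histone genes lower in percentile after UV, 0 in the fit reported, was 1 with percentiles among promoter regions, 1 with centred log2 fold enrichment and 27 with centred log2 pileup, and 0 to 24 with a library left out. The count higher in ASH1L-/- cells was 1 with centred pileup and 0 to 2 with a library left out. The interaction in percentile, 1.93, was -1.47 with a q-value of at most 0.01, -2.73 among promoter regions and -0.11 on centred log2 fold enrichment, and ran from -2.47 to 7.99 with a library left out. For width after UV, the 3 calls became 0 with the replicate block, 1 with summed width and 0 to 4 with a library left out, and the median was -0.36 when centred. The genotype difference in width was 0.0192 when centred and ran from -0.0587 to 0.0458. The interaction in width was 0.0149 summed, 0.0475 centred and 0.0466 with 1 value per distinct promoter, and ran from -0.056 to 0.130. The pileup without centring was -0.19 with 0 calls. The cause of these shifts was not tested. In all, 214 of the other settings kept the direction and the side of the threshold.

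Replicate numbers did not pair the samples: deviations of same-numbered libraries correlated at -0.10 to 0.11 in percentile, -0.04 to 0.06 in width and -0.12 to 0.20 in pileup over 6 pairs of groups. With the replicate block 0 histone genes were called in percentile, 0 in width and 27 in pileup. With 2 libraries a group and no read counts, differences smaller than this spread could not be detected.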
